A study of Mus musculus with 12 samples.

Results

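The contractile and cytoskeletal genes of smooth muscle were followed in mouse colon from which enteric neurons had been removed with diphtheria toxin. The set is 35 genes listed by their known roles, from myosin and actin to the factors that switch these genes on. Of these, 34 stand under their listed symbol among the 27179 genes of the deposited table. The remaining one, Mrvi1, appears there as Irag1 with the same gene ID (17540) and is reported apart. Cre-Positive colons (n = 7 libraries) have the genotype BAF53b-Cre::R26-iDTR, in which Cre driven by the promoter of the neuronal gene for BAF53b turns on a diphtheria toxin receptor at the Rosa26 locus. Cre-Negative littermates (n = 5 libraries) have the genotype R26-iDTR, with no Cre to turn the receptor on. All animals of both groups carried the R26-iDTR allele and received 4 μL of toxin at 0.33 ng/μL with 10% India ink, injected into the muscle wall at laparotomy. RNA came from full-thickness pieces cut at the inked site, so each library mixes mucosa, muscle coat and all other layers. Age, sex and the time from injection to dissection are not given in the labels, and nothing there says that each library is a separate animal, and a p-value here therefore speaks only of the variation among these 12 libraries, which may be technical.

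Smooth muscle contracts when calcium activates myosin light chain kinase, which phosphorylates the regulatory light chain and lets myosin pull on actin, while myosin phosphatase reverses the step. The filaments are anchored in dense bodies and at membrane plaques, and desmin filaments tie these together. Serum response factor (Srf) with its muscle partner myocardin (Myocd) turns on most of these genes by binding the CArG box, a short AT-rich element. In the colon the muscle coat lies around the myenteric neurons, which drive and restrain its contraction.

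The CArG box is shown here as it stands in the genes' own promoters, because it is the element through which Srf and myocardin act on the set. In the RefSeq promoter windows (GRCm38.p6, from 250 bases before the start of transcription to 50 after), 30 of the 34 genes had a window and 7 of the 30 held an exact match, against 1.81% of all 27025 genes with a window. The 6 below are cut to 20 bases on either side of the match and read 5′ to 3′ on the gene's strand, with the match in capitals.
Srf: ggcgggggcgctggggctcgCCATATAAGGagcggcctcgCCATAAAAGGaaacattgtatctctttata
Myl9: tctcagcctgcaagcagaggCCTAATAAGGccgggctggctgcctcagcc
Myl6: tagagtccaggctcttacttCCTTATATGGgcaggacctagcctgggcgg
Vcl: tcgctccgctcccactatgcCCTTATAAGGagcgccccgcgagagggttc
Fhl1: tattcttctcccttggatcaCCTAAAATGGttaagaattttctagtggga
Dmd: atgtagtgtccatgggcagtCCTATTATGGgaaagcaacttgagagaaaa
These lie at chr17:46556195-46556264 (minus strand), chr2:156775283-156775332 (plus), chr10:128493030-128493079 (minus), chr14:20929151-20929200 (plus), chrX:56779561-56779610 (plus) and chrX:82948752-82948801 (plus). Srf holds a pair of boxes in its own promoter. The seventh gene with a match is Ldb3. Actg2, Myh11, Tagln and Myocd had no window, so their promoters were not searched. A match describes the letters only. The box was searched by its exact form, which reads alike on both strands.

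The libraries held 13.4 to 26.9 M reads in Cre-Positive and 15.2 to 22.5 M in Cre-Negative colons, as recovered from the deposited TPM, a share of each library scaled by gene length. Mitochondrial transcripts took 5.20 to 25.6% of the TPM in Cre-Positive and 7.44 to 13.3% in Cre-Negative libraries, with the highest share and the lowest depth both in Cre-Positive 1. The neuronal marker list (8 genes, among them Uchl1, Prph and Calb2) summed to 18.3 to 35.5 TPM in Cre-Positive and 89.3 to 211 TPM in Cre-Negative libraries, and 7 of its 8 genes fell. The smooth muscle markers Myh11, Acta2, Actg2, Des, Cnn1 and Myocd were present in every library, as were those of colonic epithelium.

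None of the 34 smooth muscle genes was called as higher or lower between the groups. The test was limma on log2(TPM + 0.5) across 16164 genes with Benjamini-Hochberg adjustment, and a gene passing it had an adjusted p under 0.05. By that rule 1.43% of all genes tested were called, 0.421% as higher and 1.01% as lower. The adjusted p of the 34 ran from 0.198 to 0.990, and 2 of them (Sgca and Actn1) had an unadjusted p under 0.05, beside 11.8% of all genes tested. By voom on the recovered reads none passed either, and again 2 had an unadjusted p under 0.05. With the epithelial level of each library as a covariate 4 rose (Actn1, Des, Pdlim7 and Sgca), and with a weight per library 2 did (Fhl1 and Vcl), while the genes called as higher over the whole table numbered 1186 and 654 in these fits, against 68 in the fit without them. The log2 fold changes, Cre-Positive minus Cre-Negative, lay between -0.26 (Myl6) and 0.84 (Sgca), with 19 positive, 15 negative and a median of 0.07, beside 0.03 over all genes tested. Leaving out single libraries moved the median of the 34 from -0.04 (without Cre-Positive 6, 16 positive) to 0.21 (without Cre-Positive 1, 29 positive). It was also below 0 without Cre-Positive 2 or Cre-Negative 4, at -0.01 in both cases. No gene of the 34 had groups that did not overlap, beside 2.88% of all genes tested. The 95% interval was widest for Ppp1r12b (-0.30 to 1.35) and Pgm5 (-0.94 to 0.66). In the authors' deposited table, made with edgeR, none of the 34 had a false discovery rate under 0.05 either, beside 1.13% of all its genes, and the lowest was 0.293, for Sgca.

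**Figure D1:**
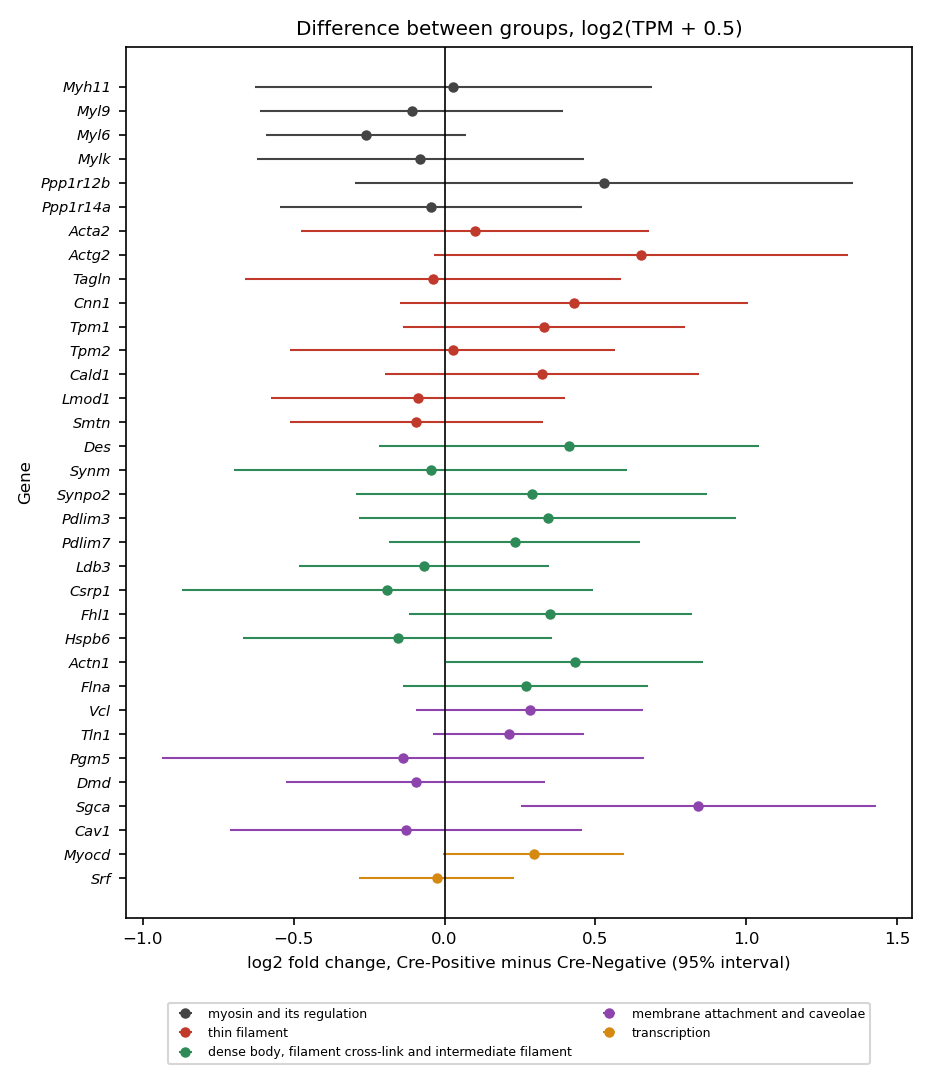
Log2 fold change of each of the 34 genes on the log2(TPM + 0.5) scale, Cre-Positive (n = 7) minus Cre-Negative (n = 5), with its 95% interval, coloured by role. All intervals but those of Sgca and Actn1 cross 0, and neither of these reached an adjusted p under 0.05.

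The spread from library to library was larger in Cre-Positive colons. All 34 genes had a larger SD of log2(TPM + 0.5) among Cre-Positive than among Cre-Negative libraries, beside 83.5% of all genes tested. The median SD of the 34 was 0.54 in Cre-Positive and 0.22 in Cre-Negative libraries, beside 0.37 in Cre-Positive and 0.20 in Cre-Negative libraries over all genes tested. Without Cre-Positive 1, the SD was larger in Cre-Positive libraries for 28 of the 34 genes, beside 74.4% of all genes tested. Without Cre-Positive 2 the count was 34, beside 83.6%, and without Cre-Positive 6 it was 33, beside 82.6%. Without Cre-Positive 1 and 6 together it was 25, beside 69.2%, and without Cre-Positive 1, 2 and 6 it was 12, beside 55.3%. In that last case the median SD of the 34 was 0.16 in the 4 Cre-Positive libraries left and 0.22 in Cre-Negative ones, beside 0.22 in Cre-Positive and 0.20 in Cre-Negative libraries over all genes tested. These libraries were picked after their values were seen, leaving out extreme ones lowers any SD, and the difference in spread was not tested.

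**Figure D2:**
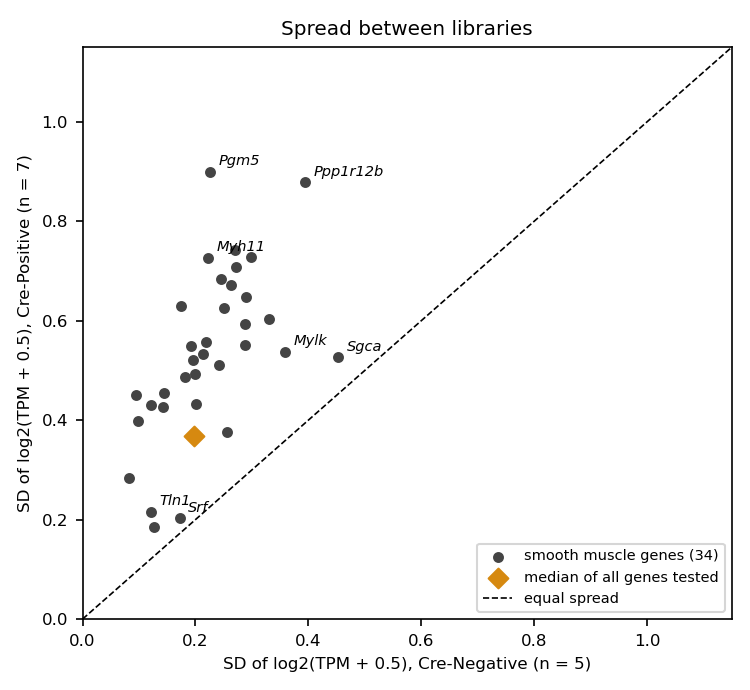
SD of log2(TPM + 0.5) between libraries for each of the 34 genes, Cre-Positive on the vertical and Cre-Negative on the horizontal axis, with the median of all genes tested as a diamond. Every gene lies above the line of equal spread, and Pgm5 and Ppp1r12b, at 0.90 and 0.88 in Cre-Positive libraries, lie highest.

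The extreme values lay in a few libraries. Summed over the 34 genes, the level was 13188 to 37566 TPM in Cre-Positive and 15309 to 20988 TPM in Cre-Negative libraries, or 1.32 to 3.76% of all TPM in Cre-Positive and 1.53 to 2.10% in Cre-Negative libraries. Cre-Positive 6 held the highest value of all 12 libraries for 25 of the 34 genes, and Cre-Positive 2 for 4 more. Cre-Positive 1 held the lowest value for 23 genes. In Cre-Positive 6 the median gene of the set lay 0.75 log2 units above the median of the other libraries, and in Cre-Positive 2 it lay 0.54 above, while all genes tested lay at -0.07 and 0.01 in these libraries. In Cre-Positive 1 the median gene lay at -0.63, beside -0.21 for all genes tested. Of the Cre-Negative libraries, Cre-Negative 4 lay below the median of the other libraries for 33 of the 34 genes. Its median gene lay at -0.36, beside 0.04 for all genes tested, and it held the lowest value of all 12 libraries for 6 genes.

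Cre-Positive 1 was not low throughout. Against the median of the other libraries, 26 genes of the set lay below and 8 above it there. The deepest were Pgm5 at -2.29, Csrp1 at -1.90, Synm at -1.80 and Cav1 at -1.45 log2 units, with Myh11 at -1.41 and Tagln and Lmod1 at -1.27. On the other side stood Pdlim7 at 0.59, Actn1 at 0.55 and Des at 0.52, with Myocd at 0.22 and Mylk at 0.17. Expressed as a ratio to Myh11 within each library, the other 33 genes had a median SD of 0.45 in Cre-Positive and 0.22 in Cre-Negative libraries on the log2 scale, against 0.53 in Cre-Positive and 0.22 in Cre-Negative libraries for their levels, and the ratio was the narrower of both for 21 of the 33 genes in Cre-Positive and 16 in Cre-Negative libraries. This library also had the highest mitochondrial share, and the part of that share was not tested.

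The marker lists of other cell types were summed in the same libraries, and no gene of the lists that follow passed. The epithelial marker list (12 genes, none at 0) summed to 19420 to 27453 TPM in Cre-Positive and 18176 to 21513 TPM in Cre-Negative libraries. The vascular mural cell list (8 genes, none at 0) summed to 57.6 to 103 TPM in Cre-Positive libraries, highest in Cre-Positive 6, and to 51.8 to 59.4 TPM in Cre-Negative libraries. The skeletal muscle list (12 genes, with Pvalb at 0 in some libraries) summed to 48.7 to 155 TPM in Cre-Positive and 27.2 to 57.8 TPM in Cre-Negative libraries. Its 2 highest sums were in Cre-Positive 6 (155 TPM) and Cre-Positive 1 (150 TPM). Single genes made up much of them, Tnnt3 at 85.9 TPM in Cre-Positive 6 and Tnni2 at 63.8 TPM in Cre-Positive 1. The list did not move as one in Cre-Positive 6. Ckm (22.1 TPM) and Myh2 (3.61 TPM) were also at their highest of all 12 libraries there, while Mylpf (3.23 TPM) and Myh1 (0.0232 TPM) were at their lowest. The fibroblast list (7 genes, none at 0) summed to 384 to 1117 TPM in Cre-Positive libraries, highest in Cre-Positive 2, and to 484 to 822 TPM in Cre-Negative libraries. The endothelial list (5 genes, none at 0) summed to 17.6 to 41.9 TPM in Cre-Positive and 25.6 to 36.6 TPM in Cre-Negative libraries, and the macrophage list (5 genes, none at 0) to 72.1 to 222 TPM in Cre-Positive and 104 to 170.4 TPM in Cre-Negative libraries. Both of these had their lowest sum of all 12 libraries in Cre-Positive 6. In bulk pieces, fewer muscle cells and less RNA per muscle cell cannot be told apart, and the part of these other cells in the spread was not tested.

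**Figure D3:**
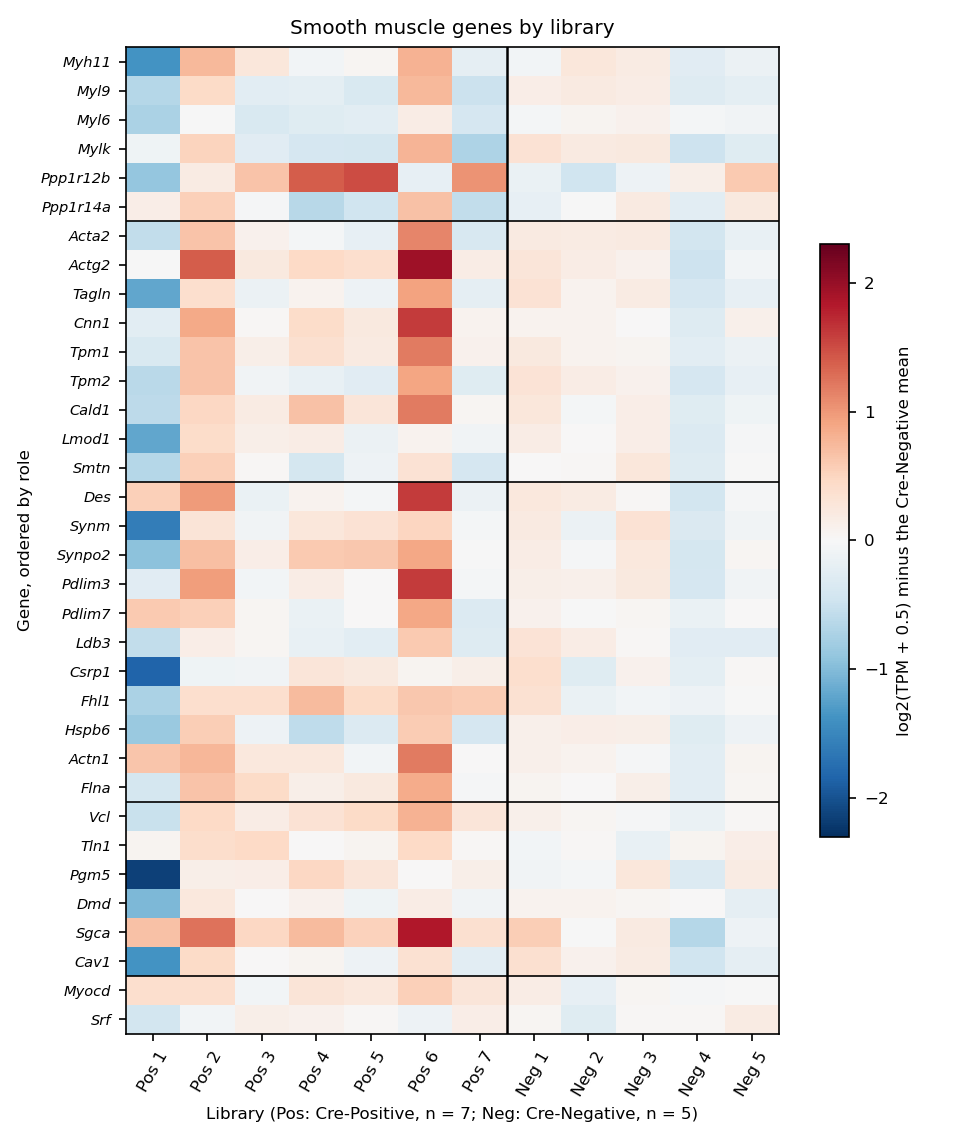
Level of each of the 34 genes in each library as log2(TPM + 0.5) minus the mean of the 5 Cre-Negative libraries, genes grouped by role between the horizontal lines, Cre-Positive libraries left of the vertical line. Cre-Positive 6 and Cre-Positive 2 are red for most genes, Cre-Positive 1 is blue for most, and the 5 Cre-Negative libraries are pale.

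Among the genes of myosin and its control, 6 were tested and none passed. Myh11, the smooth muscle myosin heavy chain (chromosome 16, 14194535 to 14291372 in mm10), stood at 186 TPM (lowest), 496 TPM (median) and 833 TPM (highest) in Cre-Positive libraries, and at 459, 579.6, 549, 402 and 439 TPM in the Cre-Negative ones. The Cre-Positive libraries thus lay on both sides of the Cre-Negative range, 2 above it and 1 below. The means were 540 ± 226 TPM in Cre-Positive (SD, n = 7) and 486 ± 75.3 TPM in Cre-Negative colons (SD, n = 5), a log2 fold change of 0.03 (95% interval -0.63 to 0.69, adjusted p = 0.990). Myl6, the essential light chain found in smooth muscle and many other cells, had the highest mean of this group of genes. It stood at 2450.0 TPM (lowest), 3313 TPM (median) and 4530 TPM (highest) in Cre-Positive libraries, against 3895, 4246, 4351, 3918 and 3828 TPM in Cre-Negative ones. In 5 of the 7 Cre-Positive libraries it lay below every Cre-Negative library, and its adjusted p was 0.574. Myl9, the regulatory light chain that the kinase phosphorylates, averaged 1363 ± 536 TPM in Cre-Positive and 1404 ± 227 TPM in Cre-Negative colons (adjusted p = 0.938).

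The kinase and the phosphatase subunit Ppp1r12b followed different libraries. Mylk, the light chain kinase, was at 104 TPM (lowest), 143 TPM (median) and 295 TPM (highest) in Cre-Positive libraries and at 215, 198, 201, 122.6 and 141 TPM in Cre-Negative ones. Ppp1r12b is a targeting subunit of myosin phosphatase, also called MYPT2. Another such subunit, Ppp1r12a, is among the further genes tested and was not set against Mylk. Ppp1r12b was at 1.33 TPM (lowest), 4.84 TPM (median) and 9.15 TPM (highest) in Cre-Positive libraries, and at 2.55, 1.99, 2.64, 3.23 and 4.67 TPM in Cre-Negative ones. Ppp1r12b was high in Cre-Positive 4, 5 and 7, where Mylk was at its lowest of the group, and it had 64 to 681 recovered reads per library. The ratio of Mylk to Ppp1r12b lay at 13.5 to 26.8 in Cre-Positive 3, 4, 5 and 7 and at 63.4 to 98.7 in Cre-Positive 1, 2 and 6, against 64.2 to 79.7 in Cre-Negative 1, 2 and 3 and 27.3 to 32.996 in Cre-Negative 4 and 5. Its difference between the groups was -0.61 on the log2 scale (exact permutation p = 0.338, adjusted p = 0.341 over the 6 ratios). The mitochondrial share moved with it, at 5.20 to 6.99% in Cre-Positive 3, 4, 5 and 7 and 10.2 to 25.6% in Cre-Positive 1, 2 and 6, against 11.6 to 13.3% in Cre-Negative 1, 2 and 3 and 7.44 to 9.09% in Cre-Negative 4 and 5. The mean log2 level of the epithelial markers, taken from their mean over all libraries, moved the opposite way to the ratio. It lay at 0.11 to 0.37 in Cre-Positive 3, 4, 5 and 7 and at -0.27 to 0.09 in Cre-Positive 1, 2 and 6. In Cre-Negative 1, 2 and 3 it lay at -0.30 to -0.25, and in Cre-Negative 4 and 5 at -0.02 to 0.01. The part of the mitochondrial share or of the epithelial level in the ratio was not tested. Ppp1r14a, the inhibitor CPI-17 of the same phosphatase, averaged 246 ± 92.1 TPM in Cre-Positive and 241 ± 35.6 TPM in Cre-Negative colons (adjusted p = 0.976). Like Mylk, it was highest in Cre-Positive 6. Irag1, the cGMP kinase substrate on the calcium store listed as Mrvi1, averaged 15.1 ± 4.54 TPM in Cre-Positive and 16.7 ± 2.63 TPM in Cre-Negative colons (adjusted p = 0.829).

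None of the 9 thin filament genes passed. Actg2, the gamma actin of visceral smooth muscle (chromosome 6, 83512905 to 83536265), was at 1809 TPM (lowest), 2378 TPM (median) and 6974 TPM (highest) in Cre-Positive libraries, against 2208, 2031, 1939, 1294 and 1728 TPM in Cre-Negative ones. No Cre-Positive library lay below the Cre-Negative range and 4 lay above it. Its means were 3218 ± 1930.0 TPM in Cre-Positive and 1840.0 ± 351 TPM in Cre-Negative colons, a log2 fold change of 0.65 (95% interval -0.03 to 1.34, adjusted p = 0.454). Acta2, the alpha actin of vascular and visceral smooth muscle (chromosome 19, 34241090 to 34255590), was at 1093 TPM (lowest), 1561 TPM (median) and 3527 TPM (highest) in Cre-Positive libraries, against 1874, 1834, 1863, 1208 and 1428 TPM in Cre-Negative ones. Here 2 Cre-Positive libraries lay above the Cre-Negative range and 1 below it, and the adjusted p was 0.949.

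The 2 smooth muscle actins were set against each other within each library, as 1 of 6 ratios picked with earlier results of these data known, so their p-values are not independent evidence. The ratio of Actg2 to Acta2 was 1.65, 1.87, 1.22, 1.59, 1.67, 1.98 and 1.62 in Cre-Positive 1 to 7, against 1.18, 1.11, 1.04, 1.07 and 1.21 in Cre-Negative 1 to 5. Every Cre-Positive library lay above every Cre-Negative one, although Cre-Positive 3 and Cre-Negative 5 nearly touched. The mean ratio was 1.66 ± 0.240 in Cre-Positive and 1.12 ± 0.0712 in Cre-Negative colons, a difference of 0.55 on the log2 scale (exact permutation test, two-sided, p = 0.00253, adjusted p = 0.0152 over the 6 ratios tested). Leaving out each library in turn gave 0.51 to 0.62, with an adjusted p of 0.0130 to 0.0260. Groups that do not overlap stay apart without any 1 library. These p-values therefore had to lie near the smallest possible and add no support. Of the ratios of all 16163 other genes to Acta2, 0.0804% lay higher without overlap, Actg2 and Sgca among them, and 0.798% lay lower, Myl9 among them. In a limma fit over all these ratios, chosen after seeing the data, Actg2 did not pass (adjusted p = 0.999979), with an SE of 0.26 on the log2 scale. That SE is drawn towards the variance of all the ratios, which share the variation of Acta2. The log2 SD of the Actg2 ratio itself was 0.22 among Cre-Positive and 0.09 among Cre-Negative libraries. The limma fit therefore does not judge the ratio by its own spread alone. That fit called 0.0557% of the ratios as higher and 0.396% as lower. The vascular mural list, whose cells also make Acta2, stood highest in Cre-Positive 6 as given above, and its part in the ratio was not tested. The transcripts of Actg2 share no 50-base word with those of Acta2 or of the other actin genes Acta1, Actc1, Actb and Actg1 in GENCODE M21, and 0.326% of the words of Acta2 occur in Actg1.

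**Figure D4:**
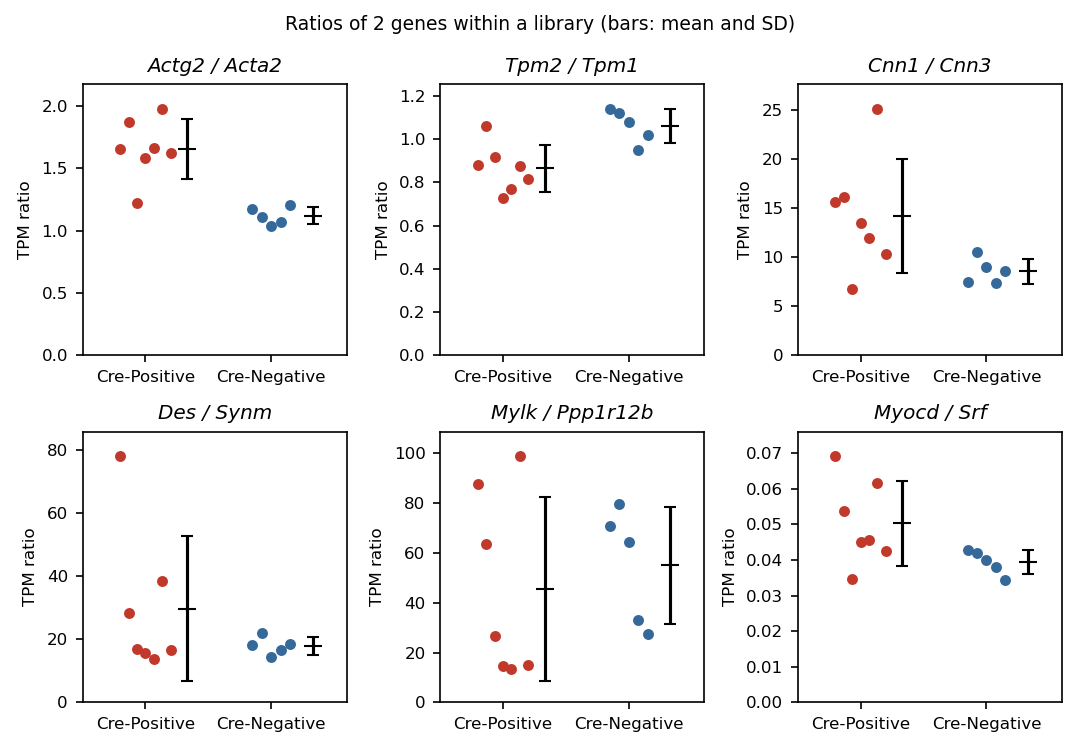
Ratio of the TPM of 2 genes in each library, Cre-Positive (red, n = 7) left of Cre-Negative (blue, n = 5), points in order of library number, bars for mean and SD, each axis from 0. For Actg2 over Acta2 all Cre-Positive points lie above all Cre-Negative ones, and for Tpm2 over Tpm1 6 of 7 lie below.

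Of the genes for tropomyosin, which lies along actin and governs access of myosin, the set holds Tpm1 and Tpm2. Tpm1 was at 653 TPM (lowest), 959.6 TPM (median) and 1901 TPM (highest) in Cre-Positive libraries and at 967, 882, 873, 708 and 759 TPM in Cre-Negative ones. Tpm2 was at 576 TPM (lowest), 781 TPM (median) and 1663 TPM (highest) in Cre-Positive libraries and at 1102, 987, 941, 671 and 772 TPM in Cre-Negative ones. Both pairs of groups overlap. The ratio of Tpm2 to Tpm1 was 0.882, 1.06, 0.919, 0.728, 0.767, 0.874 and 0.817 in Cre-Positive 1 to 7, against 1.14, 1.12, 1.08, 0.948 and 1.02 in Cre-Negative 1 to 5. It lay below every Cre-Negative library in 6 of 7 Cre-Positive ones, with means of 0.864 ± 0.109 in Cre-Positive and 1.06 ± 0.0784 in Cre-Negative colons. The difference was -0.30 on the log2 scale (exact permutation p = 0.0114, adjusted p = 0.0341 over the 6 ratios). Leaving out Cre-Positive 1, 4, 5, 6 or 7 or Cre-Negative 1, 2 or 3 raised that adjusted p to between 0.0519 and 0.0818. Fewer libraries also leave fewer splits, which alone can raise an exact p-value. The difference itself stayed at -0.35 to -0.26 without each library in turn.

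Cnn1, the muscle calponin that binds actin and slows its cycling with myosin, was at 714 TPM (lowest), 990.5 TPM (median) and 2584 TPM (highest) in Cre-Positive libraries, against 895, 894, 856, 685 and 922 TPM in Cre-Negative ones. Its paralogue Cnn3, found in many cell types, was at 45.2 TPM (lowest), 85.9 TPM (median) and 129 TPM (highest) in Cre-Positive libraries, against 119, 84.8, 94.5, 92.7 and 108 TPM in Cre-Negative ones. Their ratio lay above the Cre-Negative range in 5 of 7 Cre-Positive libraries and below it in Cre-Positive 3. It averaged 14.2 ± 5.79 in Cre-Positive and 8.58 ± 1.27 in Cre-Negative colons (exact permutation p = 0.0442, adjusted p = 0.0884 over the 6 ratios), and without Cre-Positive 3 the adjusted p was 0.0195. None of the other 4 thin filament genes passed. Tagln, which encodes the actin-binding protein transgelin, averaged 2738 ± 1178 TPM in Cre-Positive and 2632 ± 514 TPM in Cre-Negative colons. Cald1, the actin- and myosin-binding caldesmon, averaged 194 ± 75.1 TPM in Cre-Positive and 146 ± 22.1 TPM in Cre-Negative colons. Lmod1, the leiomodin that nucleates actin filaments, averaged 43.1 ± 12.4 TPM in Cre-Positive and 44.0 ± 5.72 TPM in Cre-Negative colons. Smtn, the stress-fibre protein smoothelin, averaged 148 ± 45.6 TPM in Cre-Positive and 153 ± 21.1 TPM in Cre-Negative colons.

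The dense bodies and the filaments tied to them are served by 11 genes of the set, and none passed. Des, the muscle intermediate filament desmin (chromosome 1, 75360329 to 75368579), had the highest mean among them. It was at 1136 TPM (lowest), 1322 TPM (median) and 3846 TPM (highest) in Cre-Positive libraries, against 1485, 1425, 1284, 933 and 1233 TPM in Cre-Negative ones. The 3 Cre-Positive libraries above the Cre-Negative range were 1, 2 and 6, so Des stayed high in Cre-Positive 1, where Myh11 was lowest. Synm, which encodes synemin, a filament protein that assembles with desmin, was at 23.1 TPM (lowest), 83.6 TPM (median) and 99.3 TPM (highest) in Cre-Positive libraries, and at 81.4, 64.1, 88.7, 55.5 and 65.9 TPM in Cre-Negative ones. The ratio of Des to Synm was 78.1 in Cre-Positive 1, 38.6 in Cre-Positive 6, 28.5 in Cre-Positive 2 and 13.7 to 17.0 in the other Cre-Positive libraries, against 14.4 to 22.1 in the Cre-Negative ones. Its difference between the groups was 0.46 on the log2 scale (exact permutation p = 0.341, adjusted p = 0.341 over the 6 ratios).

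Several scaffold genes had positive log2 fold changes without passing. Actn1, the alpha-actinin that cross-links actin, averaged 168 ± 56.9 TPM in Cre-Positive and 119 ± 11.4 TPM in Cre-Negative colons, with 5 of 7 Cre-Positive libraries above the Cre-Negative range (log2 fold change 0.43, 95% interval 0.01 to 0.86, adjusted p = 0.414). Fhl1, a LIM protein of muscle and one of the CArG-bearing genes above, averaged 435 ± 113 TPM in Cre-Positive and 329 ± 49.1 TPM in Cre-Negative colons. It lay above the Cre-Negative range in 6 of 7 Cre-Positive libraries and at 197 TPM in Cre-Positive 1. Its adjusted p was 0.605 in the full set, while without Cre-Positive 1 it passed, at 0.0250 with a log2 fold change of 0.53. Pdlim3 and Pdlim7, PDZ and LIM domain proteins that bind alpha-actinin or the actin cytoskeleton, had log2 fold changes of 0.34 and 0.23, and Flna, the actin cross-linker filamin A, of 0.27. Synpo2, an actin-bundling protein of dense bodies, had 0.29.

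The rest of these genes had negative log2 fold changes. Csrp1, a LIM protein of smooth muscle, averaged 711 ± 235 TPM in Cre-Positive and 756 ± 146 TPM in Cre-Negative colons and stood at 208 TPM in Cre-Positive 1. Hspb6, a small heat shock protein of muscle, averaged 28.0 ± 11.4 TPM in Cre-Positive and 29.5 ± 3.81 TPM in Cre-Negative colons. Ldb3, a PDZ and LIM protein best known from the Z-disc of striated muscle, averaged 6.71 ± 2.01 TPM in Cre-Positive and 6.93 ± 1.31 TPM in Cre-Negative colons.

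Of the 6 genes for membrane attachment and caveolae, none passed, and Sgca came nearest of the whole set. Sgca encodes alpha-sarcoglycan, a membrane partner of dystrophin best known from striated muscle (chromosome 11, 94962791 to 94976327). It was at 2.74 TPM (lowest), 3.50 TPM (median) and 8.48 TPM (highest) in Cre-Positive libraries, against 3.22, 1.98, 2.39, 1.08 and 1.80 TPM in Cre-Negative ones. The groups overlapped by Cre-Negative 1. The means were 4.27 ± 2.06 TPM in Cre-Positive and 2.09 ± 0.785 TPM in Cre-Negative colons, a log2 fold change of 0.84 (95% interval 0.25 to 1.43, adjusted p = 0.198), and 23 to 206 recovered reads per library lay behind these values. The sum of the skeletal muscle list given above was also highest in Cre-Positive 6, where Sgca was highest, with 85.9 of its 155 TPM from Tnnt3. The part of that list in the value of Sgca was not tested.

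Cav1, which encodes caveolin 1 of the membrane pits called caveolae, was the most abundant of these 6. It was at 47.2 TPM (lowest), 124 TPM (median) and 168 TPM (highest) in Cre-Positive libraries, against 161, 133, 141, 90.2 and 107 TPM in Cre-Negative ones. The lowest value was again that of Cre-Positive 1. Vcl, the plaque protein vinculin that links integrins to actin, averaged 56.2 ± 14.0 TPM in Cre-Positive and 44.8 ± 3.02 TPM in Cre-Negative colons (adjusted p = 0.604). It lay above the Cre-Negative range in 6 of 7 Cre-Positive libraries. Tln1, the integrin-binding talin, averaged 46.2 ± 7.09 TPM in Cre-Positive and 39.5 ± 3.34 TPM in Cre-Negative colons (adjusted p = 0.527). Pgm5, the plaque protein aciculin, was at 8.86 TPM in Cre-Positive 1 and at 41.5 to 57.02 TPM in the other Cre-Positive libraries, against 32.97 to 49.1 TPM in the Cre-Negative ones. Dmd, dystrophin itself, averaged 3.46 ± 0.938 TPM in Cre-Positive and 3.61 ± 0.330 TPM in Cre-Negative colons.

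Neither of the 2 transcription factors passed. On the TPM scale the coefficient of variation of Myocd was 18.2% in Cre-Positive and 14.7% in Cre-Negative libraries, and that of Srf was 13.2% in Cre-Positive and 11.6% in Cre-Negative libraries. Myocd, the muscle-restricted coactivator (chromosome 11, 65176561 to 65269989), was at 0.685 TPM (lowest), 1.003 TPM (median) and 1.29 TPM (highest) in Cre-Positive libraries, against 0.881, 0.582, 0.773, 0.714 and 0.724 TPM in Cre-Negative ones. It lay above the Cre-Negative range in 6 of 7 Cre-Positive libraries and was not low in Cre-Positive 1, with 39 to 95 recovered reads per library. Its log2 fold change was 0.30 (95% interval -0.01 to 0.60, adjusted p = 0.432). Srf, its widely expressed DNA-binding partner, was at 22.8 TPM (lowest), 31.4 TPM (median) and 34.5 TPM (highest) in Cre-Positive libraries, against 31.8, 25.3, 31.2, 31.3 and 35.2 TPM in Cre-Negative ones. The groups of Srf overlap fully but for Cre-Positive 1, and its adjusted p was 0.971. The ratio of Myocd to Srf averaged 0.0503 ± 0.0119 in Cre-Positive and 0.0394 ± 0.00340 in Cre-Negative colons (exact permutation p = 0.0758, adjusted p = 0.114 over the 6 ratios).

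**Figure D5:**
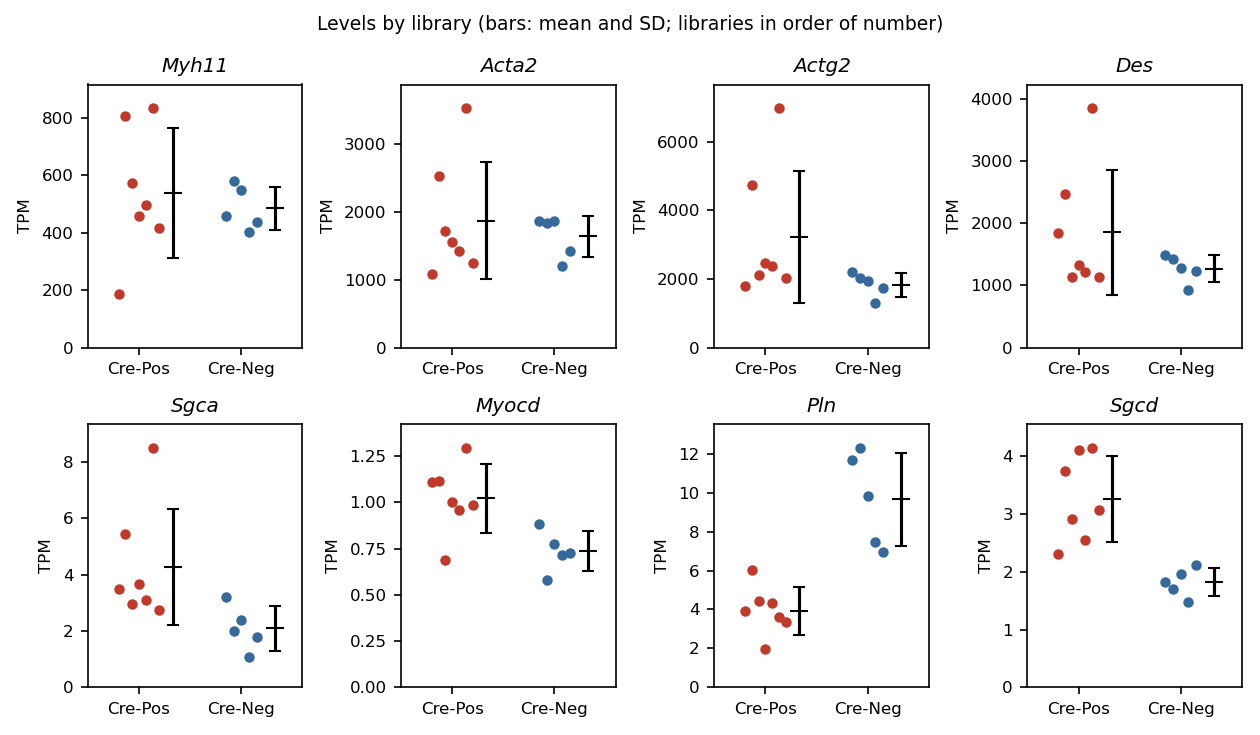
TPM of 8 genes in each library, Cre-Positive (red, n = 7) left of Cre-Negative (blue, n = 5), points in order of library number, bars for mean and SD, each axis from 0. The groups overlap for Myh11, Acta2, Actg2, Des, Sgca and Myocd, and do not for Pln and Sgcd.

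Beyond the set, 81 further genes of smooth muscle contraction, attachment and lineage control were tested of 86 listed, and 1 passed, beside 1.43% of all genes tested. Pln, which encodes phospholamban, the brake on the calcium pump of the sarcoplasmic reticulum, fell to 3.94 ± 1.23 TPM in Cre-Positive colons, against 9.65 ± 2.40 TPM in Cre-Negative ones. Its values were 1.97 TPM (lowest), 3.90 TPM (median) and 6.02 TPM (highest) in Cre-Positive libraries and 11.7, 12.3, 9.84, 7.48 and 6.96 TPM in Cre-Negative ones, so the groups did not overlap. The log2 fold change was -1.21 (95% interval -1.69 to -0.73, adjusted p = 0.0138), and with Myh11 as a covariate the adjusted p was 0.0158. Recovered reads per library numbered 56 to 408. Without Cre-Negative 2 or 3 Pln missed the threshold, at adjusted p of 0.0587 and 0.0505. In the authors' deposited table its log2 fold change was -1.33 with a false discovery rate of 0.0112.

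Among the other topics, the 16 paralogues found in many cells had a median log2 fold change of 0.27 and no gene passing. The 30 genes of the dystrophin complex, caveolae and adhesion had a median of 0.18 and no gene passing, and the 13 of lineage transcription 0.05 and no gene passing, beside 0.03 for all genes tested. Of the adhesion genes Sgcd and Filip1l had the smallest p. Sgcd, the sarcoglycan of smooth and striated muscle, was at 2.305 TPM (lowest), 3.07 TPM (median) and 4.14 TPM (highest) in Cre-Positive libraries, against 1.82, 1.71, 1.96, 1.48 and 2.12 TPM in Cre-Negative ones. These groups did not overlap, and the adjusted p was 0.0575, with 22 to 83 recovered reads per library. Filip1l, a filamin-interacting protein, averaged 64.1 ± 23.5 TPM in Cre-Positive and 37.4 ± 3.84 TPM in Cre-Negative colons, also without overlap (adjusted p = 0.117). In a fit with the level of Myh11 as a covariate, Sgcd and Filip1l passed (adjusted p = 0.0282 and 0.0401). None of the other 33 genes of the set did. Over all genes, those passing numbered 294 in this fit, against 231 in the main test.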

How the data were processed

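Polyadenylated RNA of 12 full-thickness colon pieces was sequenced from directional libraries. Per the submitters' processing notes, bcl2fastq 2.17, HISAT, featureCounts and the build mm10 were used. The authors deposited TPM per gene and a table of an edgeR comparison, with a log2 fold change, a log2 CPM, the F value (a score), a p-value and a false discovery rate per gene; its design and filter are not given in the sources used here. Per-sample TPM files equal the series table.

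Whole reads were recovered from TPM by a search over gene lengths from 20 to 30000 bases until all 12 values came out whole within 0.05 read (22840 of 22842 genes above 0). These read numbers bear on counting error only, and that error is largest, relative to the level, for genes with few reads such as Sgca and Myocd. A gene entered the test if 5 or more libraries held 0.5 TPM or more. The test was limma 3.58.1 (R 4.3.3; lmFit, eBayes with a trend) on log2(TPM + 0.5), a scale that understates changes of low genes. Ratios were compared by exact permutation. Fits were tested on simulated data. Python 3.11.15, numpy 2.4.6 and matplotlib 3.10.9 were used. Coordinates came from GENCODE M21 (mm10).

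The genes, lists, ratios and tests were chosen with earlier results of these data known. Values by library are given for the leading gene of each role, Myh11, Acta2, Actg2, Des, the transcription factors, members of the ratios and passing genes, and, of the further lists, up to 4 passing genes by p or up to 2 where none pass. Alternatives changed the pseudocount, minimum, scaling, variance model, covariates, pairing and libraries. One further topic list is not reported here.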

Additional observations from a re-analysis of the deposited data

Results flagged for a closer look

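In 80 groups of values (34 genes and 6 ratios, each in the 7 Cre-Positive and the 5 Cre-Negative libraries), 7 held a value set apart from the others by a large share of the group's range, a gap that chance gives in about 1 group in 20. Of the 7, 5 were in Cre-Positive 1, the library with the lowest depth and the highest mitochondrial share. There Csrp1 was at 208 TPM (next lowest Cre-Positive library 692 TPM), Fhl1 at 197 TPM (next 428 TPM), Pgm5 at 8.86 TPM (next 41.5 TPM) and Dmd at 1.51 TPM (next 3.34 TPM). The ratio of Des to Synm was highest there, at 78.1 (next 38.6). In the same library the median deviation of tested genes from the other libraries was -0.20 log2 units both for the 4020 genes with a length under 1500 bases and for the 1515 with a length over 6000 bases. In Cre-Negative 4, Cnn1 was low at 685 TPM (next 856 TPM). In Cre-Negative 1, Fhl1 was high at 415 TPM (next 323 TPM).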

How the results depend on the processing

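No gene of the 34 passed as lower under any alternative run for it (0 without each library in turn). Genes of the set that passed as higher numbered 2 with a weight per library (Fhl1 and Vcl), 4 with the epithelial level as a covariate (Actn1, Des, Pdlim7 and Sgca) and 0 to 1 without each library in turn (Fhl1, without Cre-Positive 1). Over the alternatives run for each gene (26, and 25 for Myh11 and Myocd) 17 of the 34 kept the sign of their log2 fold change, 15 of them positive, and 17 changed it. Of the further smooth muscle genes, those higher numbered 1 with no variance trend, 9 with a weight per library, 11 with the epithelial covariate, 2 with the Myh11 covariate, 4 with the mitochondrial covariate and 0 to 1 without each library in turn. Those lower numbered 6 with the epithelial covariate, 0 with the replicate block and 0 to 1 without each library in turn. The adjusted p of Pln ran from 0.00442 to 0.0688. Of all genes tested, 68 were higher and 163 lower in the main test. The higher ones numbered 654 with a weight per library, 1186 with the epithelial, 334 with the mitochondrial covariate, 15 with the replicate block and 23 to 126 without each library in turn. The lower ones numbered 273 with no minimum, 438 with a weight per library, 1644 with the epithelial, 359 with the mitochondrial covariate, 69 with the replicate block and 105 to 202 without each library in turn. The cause of these changes was not tested.

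The log2 difference in the ratio of Actg2 to Acta2 was 0.51 to 0.62 without each library in turn. The adjusted p of 0.0130 to 0.0260 was held near the smallest possible by the lack of overlap. In the limma fit over all ratios to Acta2 the difference was 0.55 and did not pass. Without each library in turn, Tpm2 to Tpm1 gave -0.35 to -0.26, Cnn1 to Cnn3 0.48 to 0.80 and Myocd to Srf 0.24 to 0.41; the last passed without Cre-Positive 3 (adjusted p = 0.0260). The library numbers are shared by the groups, and same-numbered libraries correlated at -0.27 to 0.36 after group means were removed. With 5 such pairs, these values cannot tell whether same-numbered libraries share more than a number, and the labels do not say. The replicate block left 84 genes passing and ended the call of Pln (adjusted p = 0.0688). Depth limits Sgca and Myocd most, with as few as 23 and 39 reads in a library.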
